A study of Mus musculus with 9 samples.

Results

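The Rab genes encode a large family of small GTPases that direct membrane traffic. Their transcripts were examined in mature mouse eggs, taking every protein-coding gene of the deposited count tables whose symbol is Rab followed by a number and, where present, a letter. This gave 56 genes of 30153 in the joined tables, of which 18483 are protein coding. Rab26, Rab39 and Rab41 were not matched and are not analysed here. Membership was set by symbol and gene type, not by level, but a gene had to be listed in the deposited tables. Rab19, with 0 counts in every GFP High and RFP library, is absent from the table of that comparison. Rab6b, with 0 counts in every GFP High and GFP Low library, is likewise absent from theirs. A Rab gene without any read may therefore not be among the 56.

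A Rab protein is active when it carries GTP and inactive when it carries GDP, and each member marks its own membrane compartment, where it recruits motors, tethers and fusion factors. Exchange factors load GTP, GTPase-activating proteins of the TBC family end the active state, and a lipid tail added by geranylgeranyl transferase lets GDP dissociation inhibitors carry the inactive protein between membranes. In the egg, Rab proteins are known for moving cortical granules, the secretory vesicles beneath the plasma membrane that are released after fertilisation and modify the zona pellucida. Rab27a and Rab3a have both been tied to this step in mouse eggs, and Rab27b is the close relative of Rab27a. Rab11a is known in mouse oocytes for the vesicles that organise the cytoplasmic actin network.

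Polyadenylated RNA was sequenced from pooled metaphase II oocytes of 4-week-old females of mixed genetic background and genotype Sycp3CreERT2/+; Rosa26nT-nG/+. All 3 groups carried both alleles. Sycp3CreERT2 is a ligand-dependent Cre recombinase made under the control of the meiotic gene Sycp3, and Rosa26nT-nG is a reporter that switches from nuclear red to nuclear green fluorescence once Cre has acted. Every female had been superovulated with PMSG and then hCG, and eggs stripped of cumulus cells were picked by eye for fluorescence. The groups are named GFP High, GFP Low and RFP, so that the groups differ in reporter state and not in an engineered Rab gene. Each group had 3 libraries, made from pools of 15, 15 and 16 oocytes (GFP High), 49, 52 and 57 (GFP Low) and 87, 88 and 100 (RFP). Pool sizes did not overlap between groups, so reporter state and pool size cannot be told apart in any comparison below. The sources used here do not say whether the replicate pools came from different females, so p-values measure the spread between these samples, which may be technical.

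Library totals were 19381677 to 27746256 counts, and 1 CPM, the count scaled to library size, was 19.4 reads in the smallest library. In CPM, eGFP reached 36.0 to 44.0 for GFP High, 14.5 to 23.9 for GFP Low and 0 to 0.594 for RFP, and tdTomato was counted 0 to 2, 16 to 35 and 46 to 94 times in the same order. All 10 oocyte markers examined were at 1 CPM or more in all 9 libraries. Of 15 cumulus and granulosa markers, 2 were at that level throughout (Nr5a2 and Cyp19a1), and the CPM of the list summed to 110.0 to 208.6 for GFP High, 139.8 to 154.3 for GFP Low and 129.8 to 190.1 for RFP. Ptx3, Tnfaip6, Ptgs2 and Inhba, which expanded cumulus cells make, were between 3.20 and 10.9 CPM in GFP High 1, GFP Low 1 and RFP 2 and at most 2.49 CPM in the other 6 libraries. Has2, also a gene of expanded cumulus, was highest in GFP High 3, at 1.08 CPM, against 0.657, 0.412 and 0.834 CPM in those 3 libraries. Of the other markers of this list, Fst (at most 6.23 CPM), Inhbb (1.19), Cyp19a1 and Nr5a2 were highest among those 3 libraries. Cyp11a1, Fshr and Star were highest outside them, at 3.21, 2.25 and 1.92 CPM. Amh, Amhr2 and Foxl2 did not exceed 0.453 CPM. Leukocyte markers did not exceed 0.449 CPM and of 4 oviduct epithelium markers Ovgp1 did not exceed 0.0878 CPM, Krt18 1.85 CPM and Epcam 2.19 CPM. Krt8, of the same list, ranged from 2.89 to 9.98 CPM, and its mean was 8.65 ± 1.39 CPM for GFP High against 4.43 ± 1.02 CPM for GFP Low (SD, n = 3; log2 difference 0.97, edgeR unadjusted p = 0.022, adjusted p = 0.998). Whether RNA of attached cells contributes to the Rab values was not tested. In pooled oocytes, fewer oocytes holding a transcript and less transcript per oocyte cannot be told apart.

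Sequence upstream of the start is shown for 3 genes that the results below turn on: Rab27a, the abundant cortical granule gene, Rab7, the most abundant Rab transcript, and Rab14, the Rab gene with the smallest p in both comparisons of GFP High. The 250 bases before the RefSeq start (table build GRCm38.p6) were found for 46 of the 56 genes, and 20 of these windows lie wholly outside the gene as the deposited tables place it. The other 26 windows reach into the deposited gene and are not used here, a rule set after the data were seen. Below, every CG dinucleotide is in capitals. Rab27a reads from chr9:73044560-73044809 on the plus strand, Rab7 from chr6:88045271-88045520 and Rab14 from chr2:35201121-35201370 on the minus strand.
Rab27a: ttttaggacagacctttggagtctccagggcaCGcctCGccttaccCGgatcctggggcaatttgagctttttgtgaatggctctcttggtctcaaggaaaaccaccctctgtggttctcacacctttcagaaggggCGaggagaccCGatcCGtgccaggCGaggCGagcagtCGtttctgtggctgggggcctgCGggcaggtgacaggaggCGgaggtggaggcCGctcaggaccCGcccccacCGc
Rab7: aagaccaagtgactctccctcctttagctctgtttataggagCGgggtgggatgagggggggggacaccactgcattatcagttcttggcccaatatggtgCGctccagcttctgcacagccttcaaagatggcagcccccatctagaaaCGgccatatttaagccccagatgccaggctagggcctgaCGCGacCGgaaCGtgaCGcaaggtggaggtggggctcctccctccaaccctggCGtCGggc
Rab14: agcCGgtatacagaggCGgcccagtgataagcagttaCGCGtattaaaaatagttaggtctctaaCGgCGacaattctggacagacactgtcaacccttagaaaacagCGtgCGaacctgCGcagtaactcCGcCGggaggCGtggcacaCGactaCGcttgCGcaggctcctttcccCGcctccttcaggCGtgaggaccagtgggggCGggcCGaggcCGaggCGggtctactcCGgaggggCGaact
The CG dinucleotide, which reads the same on both strands, occurs 14 times in the window of Rab27a, 10 times in that of Rab7 and 23 times in that of Rab14. At least 1 CG was found in 20 of 20 Rab windows and in 96.3% of 7019 protein-coding windows chosen in the same way, which include the Rab windows. The median was 18 CG in the 13 windows of detected Rab genes and 11 in the 7 others, where a detected gene is one at 1 CPM or more in all 9 libraries. Other protein-coding genes had a median of 16 CG where detected (3683 windows) and 6 where not (3316 windows).

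Every role group had at least 1 Rab gene well above the limit of detection, and in most of the listed pairs of related genes 1 copy predominated. Of the 56 genes, 31 were detected, that is, at 1 CPM or more in all 9 libraries. Rab19 and Rab6b had no more than 3 counts in any library, and the other 23 lay between these limits. Early endosome genes were detected most completely (6 of 7), followed by the recycling and exocytic route (10 of 14). Detection was less complete for the ER and Golgi group (6 of 15), late endosomes and lysosomes (2 of 4), lysosome-related organelles (2 of 3), the cortical granule group (2 of 3) and other regulated secretion (2 of 4). Of the 6 genes in no role group only Rab23, a negative regulator of Hedgehog signalling, was detected. Together the 56 genes took 0.219% to 0.238% of all counts in each library.

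Levels are compared between genes as CPM per kb of the deposited gene length, after scaling libraries by the trimmed mean of M-values (TMM). On this scale 20 genes had a mean of at least 10, 11 lay between 1 and 10, and 25 were under 1. The 3 most abundant genes held 35.5% of the summed Rab level and the 10 most abundant held 68.5%.

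**Figure D1:**
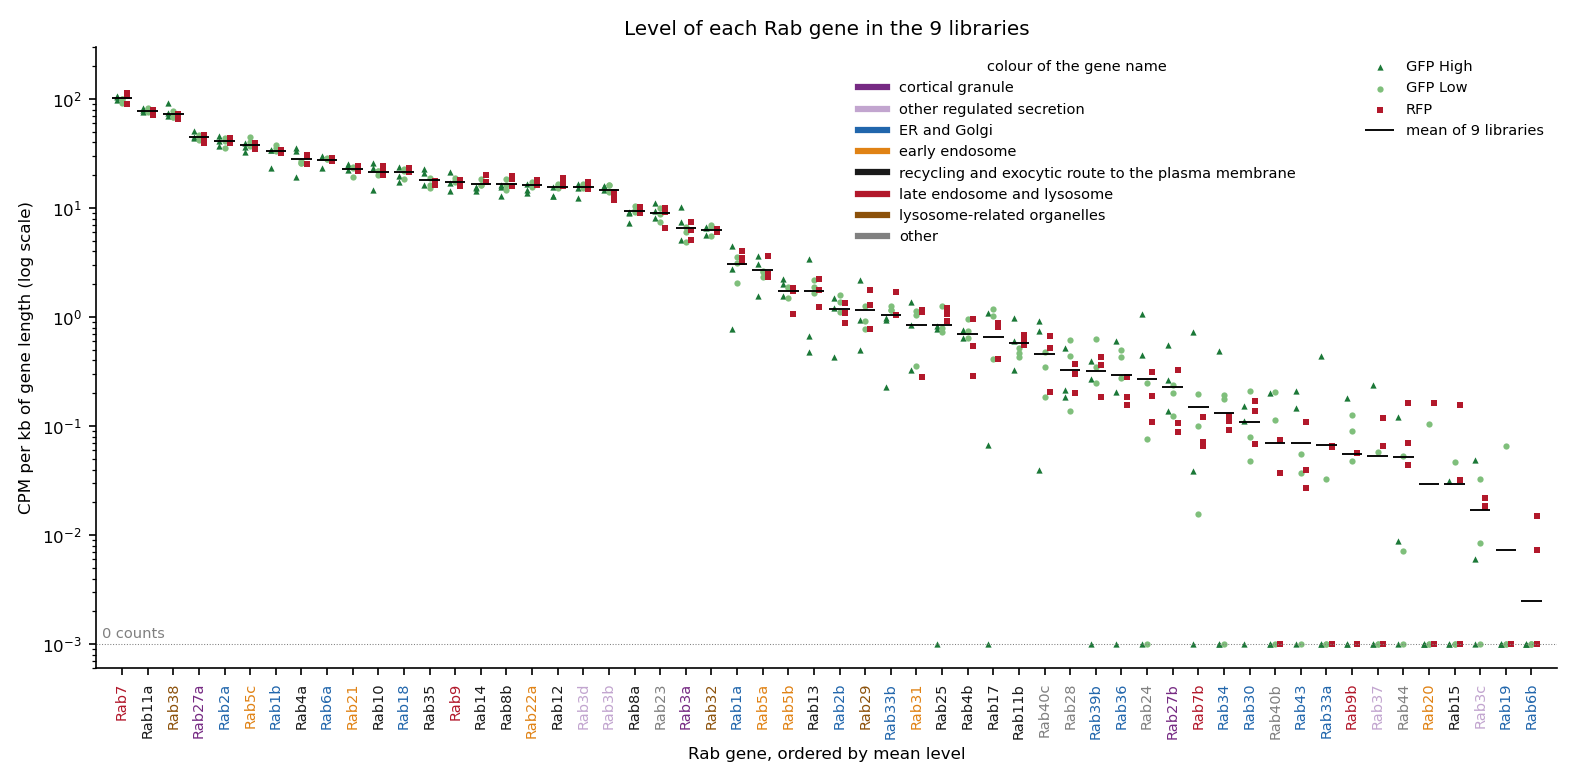
Level of each of the 56 Rab genes in CPM per kb (log axis), ordered by the mean of 9 libraries (black dashes), with 1 point per library coloured by group and gene names coloured by role; libraries with 0 counts are drawn on the dotted line. Rab7, Rab11a and Rab38 lead, and the 9 points spread widely for the genes under about 1 CPM per kb.

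Of the genes tied to cortical granules, Rab27a was abundant, Rab3a moderate and Rab27b sparse. Rab27a, which recruits tethering effectors to secretory granules, ranked 4 of 56 at 44.4 ± 3.41 CPM per kb (SD, n = 9 libraries), at the 93.8 percentile of protein-coding genes. In CPM, GFP High 1, 2 and 3 had 197, 172 and 170.0, the GFP Low libraries 164, 173 and 181, and the RFP libraries 152, 160 and 181. The 3 groups overlapped, with GFP High 1 the highest library and RFP 1 the lowest. Rab3a, a vesicle Rab known from synapses, ranked 23 at 6.57 ± 1.70 CPM per kb. In CPM, the GFP High libraries had 11.3, 23 and 16.5, those of GFP Low 10.8, 13.4 and 14.9, and those of RFP 16.5, 11.4 and 14.0, so GFP High spanned the values of both other groups but for the lowest GFP Low library. Rab27b ranked 42 at 0.227 ± 0.15 CPM per kb, with CPM values of 2.81, 5.94 and 1.48 for GFP High, 2.53, 1.34 and 2.16 for GFP Low, and 0.944, 1.14 and 3.52 for RFP. The highest and the lowest library of Rab27b were thus in different groups, but each group held values inside the range of another. Within every library Rab27a exceeded Rab27b per kb, by 80.0-fold to 444-fold.

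The other genes of regulated secretion included 2 detected relatives of Rab3a. Rab3d stood at 15.6 ± 1.5 and Rab3b at 14.7 ± 1.5 CPM per kb, each above Rab3a in 9 of 9 libraries, by 1.19-fold to 3.39-fold for Rab3d and 1.53-fold to 3.13-fold for Rab3b. Rab3c, with 46 counts over all libraries, and Rab37, with 62, stayed at or under 1.26 CPM in every library.

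Late endosome and recycling genes led the family. Rab7, which controls fusion of late endosomes with lysosomes, was the most abundant Rab transcript at 101 ± 7.08 CPM per kb. In CPM, GFP High had 278, 257 and 270.2, GFP Low 242, 263 and 262, and RFP 276, 234 and 294, with the highest and the lowest library both in RFP. The lowest library of Rab7 was above the highest of Rab11a per kb. Rab9, which returns receptors from late endosomes to the Golgi, was at 17.5 ± 1.9 CPM per kb, while Rab7b and Rab9b had 162 and 48 counts in total.

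Rab11a, the recycling endosome Rab, followed at 78.3 ± 3.92 CPM per kb, and its CPM ranged only from 213 to 249.9 over the 9 libraries. Its close relative Rab11b was the lowest detected gene of the recycling and exocytic group, at 0.575 ± 0.18 CPM per kb. Rab4a, of fast recycling, reached 28.1 ± 4.77, Rab35, which sorts cargo from endosomes to the surface, 18.1 ± 2.5, Rab8b 16.5 ± 2.2 and its relative Rab8a, which guides exocytic vesicles, 9.30 ± 0.90 CPM per kb. Rab14, which acts between the Golgi and recycling endosomes, was at 16.8 ± 1.8 CPM per kb with the deposited length of 13.6 kb, rank 15. With the longest coding transcript of GENCODE M21 (3.08 kb) its level was 74.0 and its rank 3. This alternative length was tried after seeing the data, and it moved Rab18 the other way, from rank 12 to rank 23. The coordinates of Rab18 differ between the deposited annotation and GENCODE M21, with a deposited length of 2.26 kb against 6.52 kb for that transcript. Its rank of 23 therefore sets counts on the deposited gene model against a length from another.

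Rab38, known for delivering enzymes to melanosomes and other lysosome-related organelles, was the third most abundant member at 72.8 ± 8.23 CPM per kb. Its CPM values were 109, 145 and 117 for GFP High, 108, 123 and 109 for GFP Low, and 114, 104 and 105 for RFP, with GFP High 2 above all other libraries. Rab32, which shares this role with Rab38, was at 6.30 ± 0.50 CPM per kb.

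Among ER and Golgi genes, Rab2a (ER to Golgi traffic) was highest at 41.0 ± 3.36 CPM per kb, followed by Rab1b (ER export) at 33.1 ± 4.12 and Rab6a (Golgi traffic) at 27.8 ± 1.90. Rab1a, which shares the role of Rab1b, was at 3.05 ± 1.1 and varied most in GFP High, with 10.6, 2.97 and 17.0 CPM. Rab2b was the lowest detected gene of this group at 1.17 ± 0.36 CPM per kb. Rab6b, known mainly from brain, had 3 counts over the 9 libraries.

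Early endosome genes were led by Rab5c at 37.9 ± 3.61 CPM per kb, with Rab21, an endosomal Rab linked to integrin traffic, at 23.1 ± 1.84. Rab5a and Rab5b, which like Rab5c drive early endosome fusion, were at 2.70 ± 0.66 and 1.74 ± 0.34. Rab31 was the lowest detected gene of the group at 0.852 ± 0.42, and Rab20 had 10 counts in total.

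The excess of one copy was measured pair by pair. Over 14 listed pairs of related genes, the first exceeded the second per kb in all 9 libraries. Each pair was written with the more abundant gene first after its level was known. Rab3d and Rab3b were not listed as a pair, and neither was higher throughout. Per kb Rab3b was higher in GFP High 1, GFP High 2, GFP Low 2 and GFP Low 3, and Rab3d in the other libraries. The ratio of mean levels was 136 for Rab11a over Rab11b, 40.2 for Rab4a over Rab4b, 34.9 for Rab2a over Rab2b and 21.7 for Rab5c over Rab5b. It was 14.0 for Rab5c over Rab5a, 11.6 for Rab38 over Rab32 and 10.8 for Rab1b over Rab1a. For the copies of Rab8 it was 1.78, with Rab8b at 1.56-fold to 2.05-fold the level of Rab8a. With the longest coding transcript of GENCODE M21 as the length it was 1.73, and Rab3b over Rab3a fell from 2.23 to 1.65, below it. For Rab7 over Rab7b and Rab9 over Rab9b a ratio could be formed in only 7 and 5 libraries, because the second gene was at or under 3 counts in the others.

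**Figure D2:**
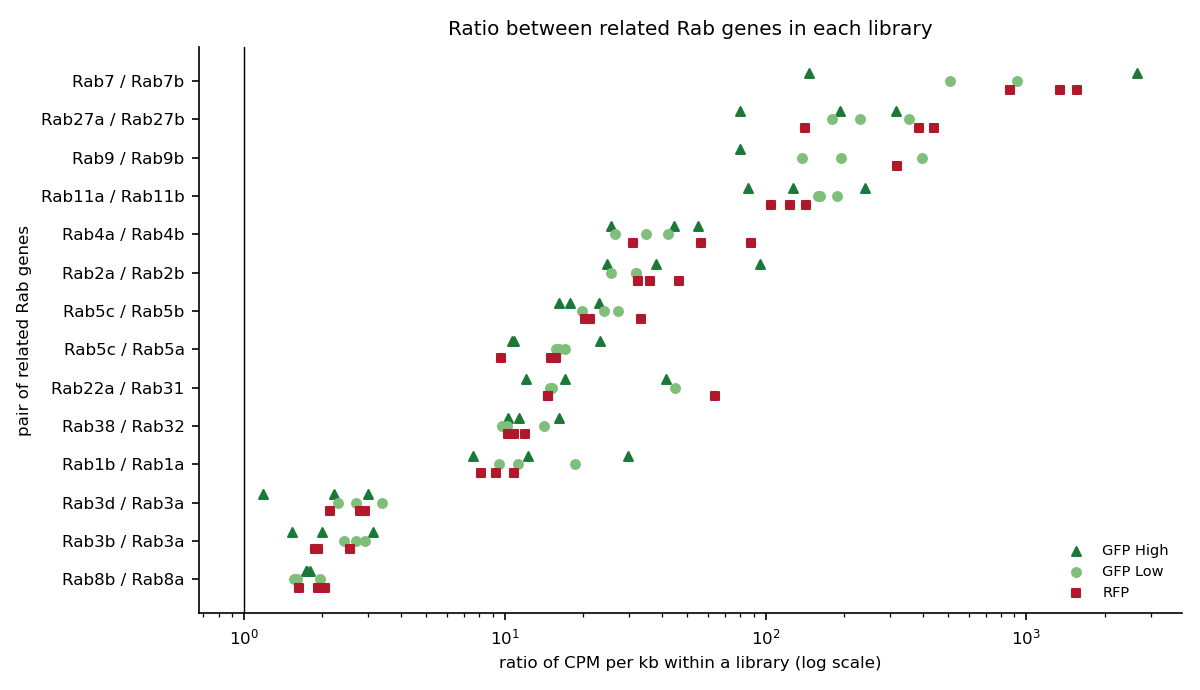
Ratio of CPM per kb between related Rab genes in each library (log axis), with 1 point per library coloured by group, shown where the less abundant gene had more than 3 counts. Every point lies right of 1 for these listed pairs, which are written with the more abundant gene first. The copies of Rab8 lie between 1.56 and 2.05, and those of Rab27 between 80.0 and 444.

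Several Rab genes share exon bases or near-identical sequence with other genes, and whether the counting used strand is not given in the sources used here. Rab24 shares 62.4% of its exon bases with Prelid1 on the opposite strand, which averaged 1532 counts against 14.1 for Rab24, and Rab6a shares 19% with Mrpl48, also on the opposite strand. Rab2b shares 59.3% with Gm43766 and 4.7% with Tox4, both on the opposite strand, which touches the ratio of Rab2a over Rab2b. No counts were found for Gm43766, and whether it was counted is not known. Tox4 averaged 67.4 counts against 120.9 for Rab2b. Rab43 and Rab4b share 75.4% and 65% with the overlapping models Gm45140 and Gm21983 on their own strand. Rab11b shares 5.4% with Gm17251 on the opposite strand, which averaged 107.6 counts against 88.4 for Rab11b. This touches the ratio of Rab11a over Rab11b and the values of Rab11b in GFP Low against RFP. Rab11b, Rab7, Rab5b, Rab8b and Rab27a each have a processed pseudogene with stretches of 100 identical bases. No counts were found for that of Rab27a, Gm27186. The values of these genes are uncertain to that extent.

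GFP High was compared with RFP to ask whether eggs with the strongest recombined-reporter signal differed in Rab transcripts from eggs without it. No Rab gene passed: of 44 tested with edgeR's quasi-likelihood test on counts, 0 had an adjusted p under 0.05 (smallest 0.997), where 2 of 14829 genes did (0.0135%). DESeq2's Wald test also called 0 members. At an unadjusted p under 0.05 there was 1 Rab gene in either test, against 4.09% of all genes with edgeR. That gene was Rab14, with CPM values of 213, 193 and 207 for GFP High and 275, 237 and 235 for RFP. All 3 GFP High libraries were below all 3 RFP libraries, with a log2 difference of -0.28 (SE 0.10, edgeR unadjusted p = 0.020, adjusted p = 0.997), and without RFP 1 the difference was -0.21 and no Rab gene had an unadjusted p under 0.05.

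The groups did not overlap for 5 of the 44 genes, against 11.9% of all genes tested. Rab3b was higher in GFP High, and Rab14, Rab12, Rab33b and Rab25 were lower, none with an adjusted p under 0.05. Rab12 had CPM values of 47.3, 39.3 and 38.8 for GFP High and 48.5, 57.5 and 50.3 for RFP, a log2 difference of -0.31 (SE 0.15). Rab3b had CPM values of 56.0, 55.7 and 52.1 for GFP High and 49.97, 46.0 and 41.6 for RFP, a log2 difference of 0.26 (SE 0.14). The median log2 difference was -0.0029 over the 44 Rab genes and -0.0056 over all genes tested.

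For the cortical granule genes the log2 difference of GFP High from RFP was 0.14 for Rab27a (SE 0.11, 95% interval -0.11 to 0.38), 0.29 for Rab3a (SE 0.30, -0.37 to 0.95) and 0.87 for Rab27b (SE 0.75, -0.80 to 2.55). None passed the test, and the groups overlapped for each. The differences of Rab3a and Rab27b rested on GFP High 2 and were -0.0035 and 0.20 without it, and that of Rab27b was 1.70 without RFP 3. By role, the median log2 difference was -0.18 over 13 recycling and exocytic genes, -0.11 over 11 ER and Golgi genes and -0.0064 over 6 early endosome genes. It was 0.029 over 3 genes of lysosome-related organelles, 0.035 over 2 late endosome genes, 0.066 over 2 genes of other regulated secretion, 0.22 over 4 genes in no role group and 0.29 over the 3 cortical granule genes.

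GFP Low was compared with RFP, 2 groups of larger pools. Of 43 Rab genes tested, 0 had an adjusted p under 0.05 with edgeR and 0 with DESeq2, where edgeR called 3 of 15199 genes (0.0197%). At an unadjusted p under 0.05 there were 2 with edgeR and 1 with DESeq2, against 2.62% of all genes with edgeR. Rab3b had 49.7, 57.3 and 57.1 CPM in GFP Low against 49.97, 46.0 and 41.6 in RFP, a log2 difference of 0.26 (SE 0.12, edgeR unadjusted p = 0.048), with overlap between GFP Low 1 and RFP 1. Rab36, a sparse Golgi-associated member, had 1.70, 3.05 and 2.67 CPM in GFP Low against 1.13, 0.965 and 1.74 in RFP, a log2 difference of 0.95 (SE 0.43, edgeR unadjusted p = 0.047), with overlap between GFP Low 1 and RFP 3. Rab3b shares 9% of its exon bases with an antisense gene that averaged 6.6 counts.

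The groups did not overlap for 1 of the 43 genes, Rab11b, against 7.68% of all genes tested. Rab11b had 2.84, 2.63 and 3.17 CPM in GFP Low and 3.77, 3.42 and 4.16 in RFP, a log2 difference of -0.39 (SE 0.29). The median log2 difference was -0.0064 over the Rab genes and -0.0041 over all genes. Rab27a differed by 0.08 (SE 0.09, 95% interval -0.12 to 0.27), Rab3a by -0.09 (SE 0.19, -0.51 to 0.32) and Rab27b by 0.10 (SE 0.53, -1.05 to 1.25), all without passing the test.

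GFP High was compared with GFP Low, the groups that both carry the recombined reporter. Of 45 Rab genes tested, 0 had an adjusted p under 0.05 with edgeR or DESeq2, and 0 had an unadjusted p under 0.05 with either, where edgeR called 0 of 14785 genes (0%) after adjustment and 3.77% before. The smallest p belonged to Rab14, with a log2 difference of -0.17 (SE 0.09, edgeR unadjusted p = 0.087) and 250.3, 221 and 220.5 CPM in GFP Low. Rab35 came next, with CPM values of 46.0, 59.3 and 64.1 for GFP High and 53.7, 42.8 and 46.2 for GFP Low, a log2 difference of 0.25 (SE 0.17). Rab12 followed at -0.22 (SE 0.15), with 50.6, 49.7 and 46.2 CPM in GFP Low.

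The groups did not overlap for 3 of the 45 genes, against 11.5% of all genes tested. These were Rab14, Rab8a and Rab33b, each lower in GFP High. Rab27a differed by 0.06 (SE 0.10, 95% interval -0.16 to 0.28), Rab3a by 0.38 (SE 0.29, -0.28 to 1.03) and Rab27b by 0.77 (SE 0.67, -0.73 to 2.27), with overlapping groups for each. Without GFP High 2 the difference was 0.091 for Rab3a and 0.098 for Rab27b. The 3 comparisons share libraries, since each group enters 2 of them, so their differences for a gene are not independent.

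**Figure D3:**
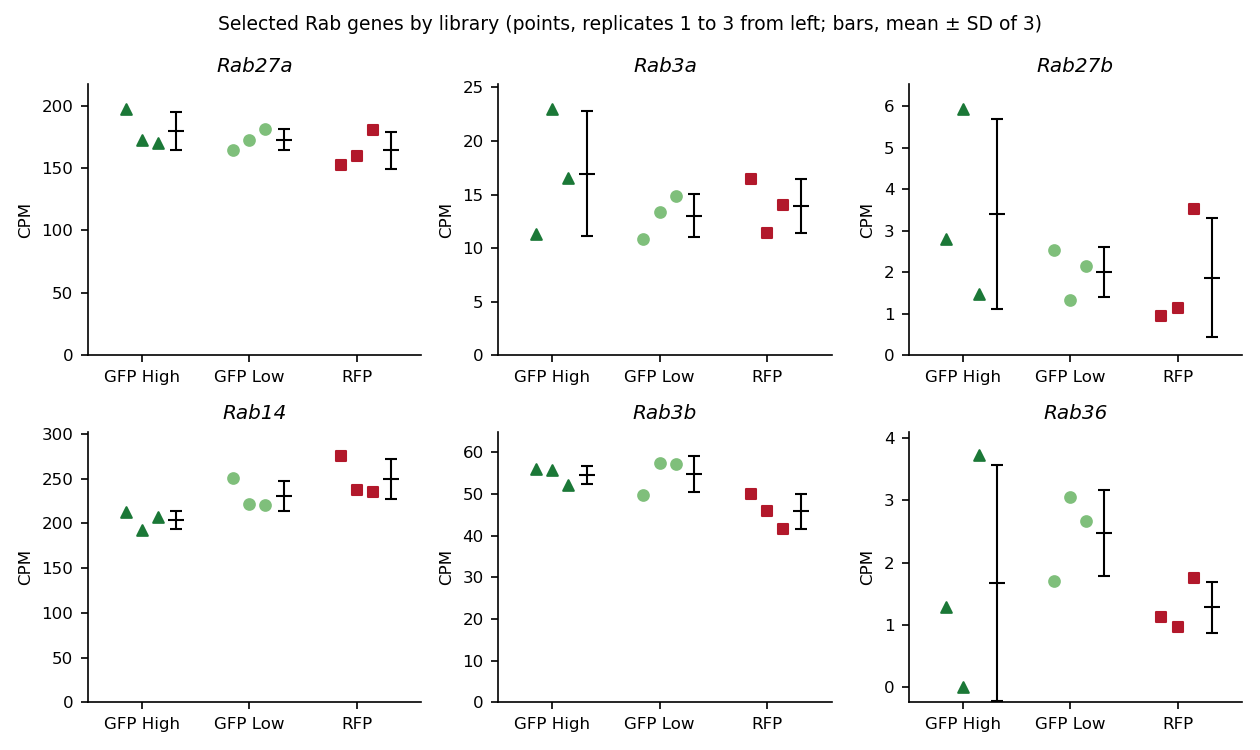
CPM in each library of the 3 cortical granule genes and of the genes with an unadjusted p under 0.05 in a comparison, with points for replicates 1 to 3 from left to right and bars for the mean ± SD of 3 libraries. The groups overlap for Rab27a, Rab3a, Rab27b and Rab36, while for Rab14 the GFP High points lie below all others and for Rab3b they lie above the RFP points.

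The intervals show how much difference these data could have shown. For GFP High against RFP the 95% interval of the log2 difference lay within 1.5-fold either way for 21 of the 31 detected genes and within 2-fold for 25. The counts were 25 and 29 for GFP Low against RFP, and 20 and 25 for GFP High against GFP Low. Over all Rab genes tested the interval lay within 2-fold for 56.8%, 69.8% and 55.6%, and over all genes tested for 50.3%, 65.7% and 50.3%. For Rab7, Rab11a and Rab27a the interval stayed inside 1.5-fold in all 3 comparisons, so a larger difference would lie outside it. It reached past 2-fold in at least 1 comparison for Rab13, Rab31, Rab11b and Rab1a, among others.

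**Figure D4:**
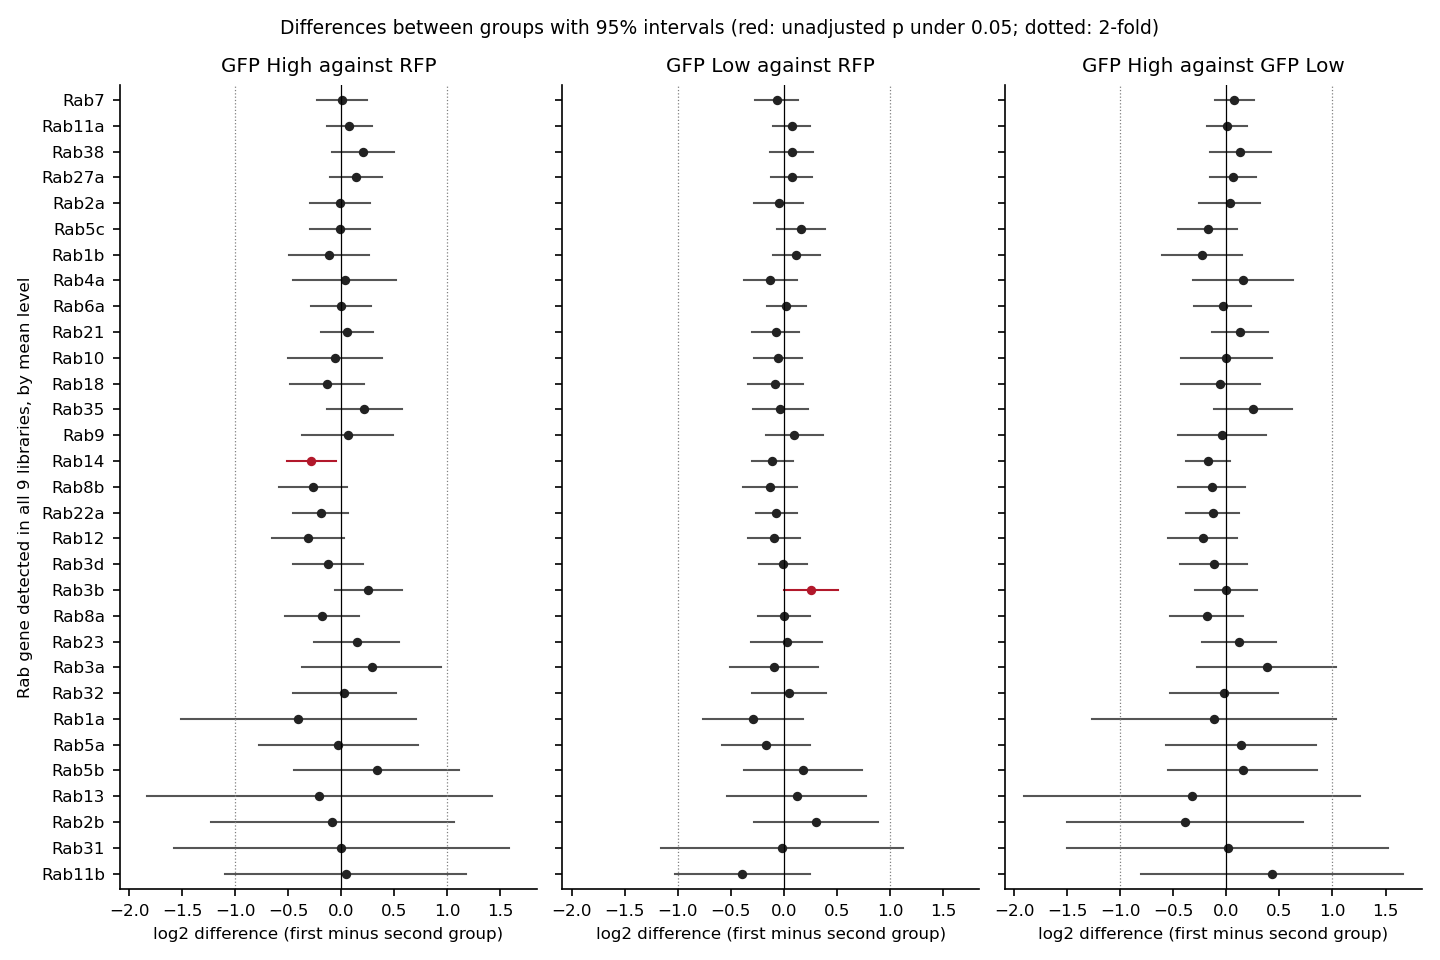
log2 difference between groups for the 31 detected Rab genes, ordered by mean level, with 95% intervals from edgeR's quasi-likelihood test; dotted lines mark a 2-fold difference and red marks an unadjusted p under 0.05. The intervals are narrow for the abundant genes at the top and widen toward the sparse genes at the bottom, and Rab14 and Rab3b are the only detected genes in red.

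Replicates were less alike in GFP High, the group with the smallest pools. Over the 24 Rab genes at 10 CPM or more in every library, the median coefficient of variation between the 3 replicates was 12.4% for GFP High, 6.81% for GFP Low and 6.79% for RFP. The 6725 genes at that level had medians of 13.9%, 7.78% and 9.03% in the same order. GFP High 2 stood apart among the sparse genes, with 17 of the 56 Rab genes at 0 counts against 2 to 8 in the other libraries. Of the 23 Rab genes between the limits, 15 were at 0 in GFP High 2 and 1 to 6 elsewhere. Other protein-coding genes were taken where their mean lay in the same range, 0.0412 to 3.73 CPM, and they were not detected. They were not matched to the Rab genes in level within that range. Of these genes 69.2% were at 0 in GFP High 2, 46.4% and 44.9% in GFP High 1 and 3, and 18.7% to 29.9% in GFP Low and RFP. Rab17, known from polarised epithelia, was at 0 in GFP High 2 but also had only 3 counts in GFP High 3. Its CPM values were 2.15, 0 and 0.135 for GFP High and 0.816 to 2.34 in the other groups. Without GFP High 2, 34 Rab genes were detected in place of 31, and none had an adjusted p under 0.05. The part of pool size in these zeros was not tested.

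**Figure D5:**
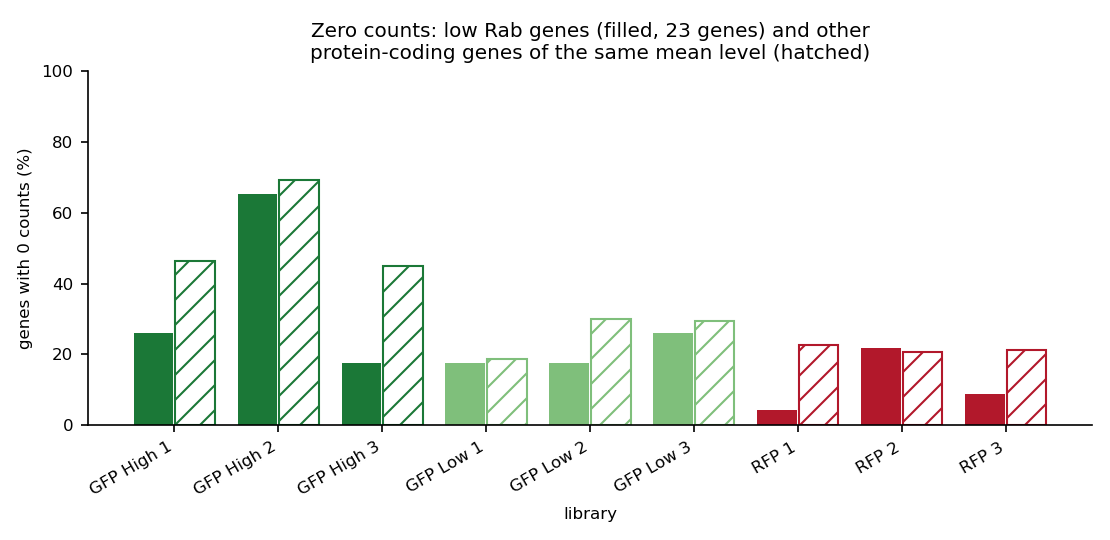
Percent of genes with 0 counts in each library, for the 23 Rab genes between the limits (filled bars) and for other protein-coding genes within the same range of mean CPM (hatched bars), coloured by group. GFP High 2 has the most zeros in both sets, 65.2% and 69.2%.

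Leaving out GFP High 1 changed the count of Rab genes with an unadjusted p under 0.05 most. Without it there were 6 Rab genes of 45 when GFP High was set against RFP and 6 of 48 when it was set against GFP Low, while the share of all genes was 9.78% and 9.33%. Without GFP High 3 the share of all genes was larger, 11.3% and 10.2%, while the Rab genes numbered 1 and 0. The genes without GFP High 1 are named after their values were seen. Rab13, Rab17, Rab12 and Rab35 were among them in both comparisons, joined by Rab14 and Rab22a against RFP and by Rab4a and Rab3a against GFP Low. Their smallest adjusted p was 0.464 against RFP and 0.520 against GFP Low. Rab13, of epithelial junction traffic, had 7.81 CPM in GFP High 1 but 1.1 and 1.53 in GFP High 2 and 3. It had 5.00, 3.82 and 4.33 CPM in the GFP Low libraries and 4.11, 5.18 and 2.82 in the RFP libraries. Within each group its highest library was also the one with the most Ptx3, Tnfaip6, Ptgs2 and Inhba. These were GFP High 1, GFP Low 1 and RFP 2. The same held for Rab12, but not for the other genes named here. Whether RNA of attached cells contributes to these values was not tested.

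Genes that regulate or serve the Rab proteins also gave 0 adjusted calls in the 3 comparisons with edgeR, and their unadjusted calls, at a p under 0.05, all had an adjusted p of at least 0.997. For comparison, 4.09% of all genes had such a p in GFP High against RFP, 2.62% in GFP Low against RFP and 3.77% between the GFP groups. The 7 genes of Rab chaperones and prenylation gave none, with a median log2 difference of GFP High of -0.24 from RFP and -0.17 from GFP Low, the most abundant being Gdi2, which extracts GDP-bound Rabs from membranes, at 42.5 ± 1.06 CPM per kb. Among 30 exchange factors, of which 26 were tested in each GFP High comparison and 27 in GFP Low against RFP, 1 was higher in GFP High in both of its comparisons at an unadjusted p under 0.05. This was Rin3, an activator of Rab5 proteins, whose CPM was 32.2 ± 5.14 for GFP High, 20.5 ± 1.54 for GFP Low and 21.1 ± 0.848 for RFP (SD, n = 3). Its log2 difference was 0.62 (SE 0.19, edgeR unadjusted p = 0.0080) from RFP and 0.66 (SE 0.19, edgeR unadjusted p = 0.0062) from GFP Low. Ric1, part of the exchange factor for Rab6, was lower in GFP Low than in RFP by a log2 difference of -0.36 (SE 0.11, edgeR unadjusted p = 0.0050). Rab3il1, which activates Rab8 and Rab3 proteins, was the most abundant exchange factor at 22.6 ± 3.03 CPM per kb.

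Of 39 genes listed as GTPase-activating proteins, 32 were tested in each comparison, and Tbc1d31 alone had an unadjusted p under 0.05. Genes with a Tbc1d symbol, Tbc1d31 among them, were listed by symbol and not by known activity on a Rab protein. Its CPM was 4.40 ± 0.658 for GFP Low, 2.78 ± 0.275 for RFP and 1.43 ± 0.870 for GFP High (SD, n = 3). The log2 difference was 0.66 (SE 0.29) for GFP Low against RFP and -1.62 (SE 0.67) for GFP High against GFP Low. Tbc1d15, which acts on Rab7, was the most abundant of this list at 249.1 ± 6.60 CPM per kb.

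Of 36 effectors, 31 or 32 were tested, and the unadjusted calls were all lower in GFP High, 3 relative to RFP and 4 relative to GFP Low, against 4.09% and 3.77% of all genes. The summed CPM of the list overlapped between all groups, at 3297 to 3632 for GFP High, 3616 to 3646 for GFP Low and 3480 to 3855 for RFP. Rims2, an active zone protein that binds Rab3, had a CPM of 6.68 ± 1.40 for GFP High, 13.0 ± 3.16 for GFP Low and 11.6 ± 2.01 for RFP. Ocrl, a phosphoinositide phosphatase that binds several Rabs, was at 36.7 ± 0.881, 46.8 ± 3.76 and 48.6 ± 5.54 CPM in the same order. The others were Gcc2, a Golgi tether, at a log2 difference of -0.23 (SE 0.10) from RFP, and, from GFP Low, Rph3a, a Rab3 effector, at -0.27 (SE 0.11) and Rab11fip5, a Rab11 effector, at -0.62 (SE 0.26). The most abundant effector was Rufy1, of early endosomes, at 222 ± 8.67 CPM per kb. The median log2 difference of GFP High over the effectors tested was -0.14 against RFP and -0.08 against GFP Low. It was -0.06 and 0.01 over the exchange factors and -0.04 and -0.10 over the GTPase-activating proteins, where all genes tested had -0.0056 and -0.0048.

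The 13 genes of cortical granule content and exocytosis gave no unadjusted call, with 11 tested in both comparisons with RFP and 10 between the GFP groups. Astl, which encodes ovastacin, the granule protease that cleaves ZP2, was the most abundant at 114 ± 9.52 CPM per kb. The CPM of the list summed to 866.9 to 1014 for GFP High, 896.5 to 1019 for GFP Low and 887 to 953 for RFP, with overlap between all groups. In GFP High, 3 of the 10 oocyte markers had an unadjusted p under 0.05 against RFP (Gdf9, Oosp1 and Zar1), where 4.09% of all genes did, and 3 against GFP Low (Oosp1, Mos and Gdf9), where 3.77% did, all higher, and the CPM of that list summed to 6456 to 7139 for GFP High, 5842 to 6053 for GFP Low and 5965 to 6246 for RFP.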

How the data were processed

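The authors deposited 3 tables, 1 per pair of groups, holding for each gene the raw read count of 6 libraries, FPKM values and the results of their own comparison. FPKM values deposited by the authors served only to check the ranking of levels, and the authors' deposited log2 fold changes and p-values entered no test. The submitters' processing notes name fastp, HISAT2 2.0.5, featureCounts 1.5.0-p3, DESeq2 1.20.0 and mm10, with no settings. Reads carry no molecular identifiers. Intervals of the log2 differences cover the spread between replicate libraries as well as counting error. The tables were joined by gene identifier over 9 libraries, and no Rab count had to be filled in. Coordinates of 54 Rab genes equal those of GENCODE M21 (GRCm38), and those of Rab18 and Rab1b do not.

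Each pair of groups was fitted on its own 6 libraries with edgeR 4.0.16 in R 4.3.3: filterByExpr, TMM, glmQLFit and glmQLFTest at package defaults, Benjamini-Hochberg adjustment over all genes tested, threshold 0.05. Standard errors and intervals came from the quasi-likelihood F statistic. CPM used TMM factors over the 9 libraries. Replicates were distinct libraries (chi-square per degree of freedom 13.8 to 57.6). Alternatives were DESeq2 1.42.0, limma-voom (limma 3.58.1), other scaling, filters and deviances, all 9 libraries in 1 fit, a replicate block and leaving out each library. The test was checked on simulated data with the same spread in both groups and changes placed only in genes with high counts. That check therefore does not cover sparse genes or the wider spread of GFP High.

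Named genes are the 3 cortical granule genes, the 10 most abundant, those with a p under 0.05 or else the 3 smallest p, 11 studied in oocytes, and the highest and lowest detected of each role. Members and lists were chosen with earlier results of these data known. Cd52 and 4 erythrocyte genes were not matched and are not analysed here. Promoter windows are from RefSeq. Protein sequences were not used here.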

Additional observations from a re-analysis of the deposited data

How the results depend on the processing

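No Rab gene passed an adjusted p of 0.05 in any of the 45 alternative fits (15 in each comparison), and the number detected stayed between 31 and 42 of 56 over 12 alternatives, 34 without GFP High 2. Leaving out 1 library gave 31 to 34 detected genes. It gave 0 to 6 Rab genes with an unadjusted p under 0.05 for GFP High against either other group and 0 to 2 for GFP Low against RFP, and fitting all 9 libraries together gave 2, 0 and 0 (GFP High against RFP, GFP Low against RFP, GFP High against GFP Low, the order used below). Counted over protein-coding genes only, the Rab share was 0.247% of counts. Some small differences of cortical granule genes turned sign when a library was left out, and the cause was not tested. For GFP High against RFP, the log2 difference of Rab3a ran from -0.0035 (GFP High 2 left out) to 0.50. For GFP Low against RFP, that of Rab3a ran from -0.22 to 0.040 (0.040 without RFP 1, 0.018 without GFP Low 1) and that of Rab27b from -0.23 to 0.94 (-0.23 without RFP 1, -0.15 without RFP 2, -0.10 without GFP Low 1). For GFP High against GFP Low, that of Rab27a ran from -0.019 (GFP High 1 left out) to 0.092. Rab14 in GFP High against RFP stayed between -0.33 and -0.21 over its alternatives, Rab3b in GFP Low against RFP between 0.19 and 0.32, and Rab36 there between 0.77 and 1.24. The sources used here do not say whether same-numbered libraries belong together. Deviations of same-numbered libraries correlated between -0.106 and 0.12, and 0 of 9 libraries correlated best with their own number in both other groups. With 3 libraries per group such correlations cannot settle whether the numbers pair them. With the replicate block 0 Rab genes passed in each comparison, and 4, 3 and 0 of all genes did. All genes passing numbered 2, 3 and 0 with edgeR, 12, 10 and 4 with DESeq2, 16, 34 and 16 without a filter on low counts, 1, 1 and 0 with limma-voom, and 0 to 2, 2 to 3 and 0 to 1 with 1 library left out. GFP Low 1, the smallest library, had 5 Rab genes at 0 and GFP High 2 had 17. The part of library totals in these zeros was not tested.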
